A study of Mus musculus with 22 samples.

Results

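Ribosome biogenesis was examined through 39 genes for factors that make or process ribosomal RNA in the nucleolus that were listed by symbol. Of the 39, 38 had a probe set annotated to that gene alone, among 18193 genes so represented on the arrays, and each gene was read through its brightest such set, judged by the mean of the 22 arrays. The remaining gene, Mrto4, was annotated only to a probe set of 3 genes and is not reported. The members were grouped by role into 3 RNA polymerase I subunits, 5 abundant nucleolar proteins, 4 proteins of box C/D and 4 of box H/ACA small nucleolar ribonucleoproteins, 11 factors of the small subunit and 11 measured factors of the large subunit.

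Total RNA of 22 mouse samples was measured on Affymetrix arrays. A2C12 is a cell line derived from a lung tumour that arose in a C57BL/6 mouse carrying both a c-myc and a c-raf transgene, and the cells examined were its side population (SP), the fraction that keeps out the dye Hoechst and is collected by flow sorting. There were 3 untreated preparations of these cells, 3 preparations exposed before the sort to a monoclonal antibody against mouse EpCAM, an epithelial adhesion protein, at 100 µg/ml for 48 h, and 16 lungs from C57BL/6 mice without the transgenes, of which 8 carry the label male and 8 the label female. The promoter that drives each transgene and the age of the lung donors are not given in the sources used here. Both cell groups come from the same line and both were dye-stained and sorted. The labels call samples of a group biological replicates, and the cell samples are preparations of a single tumour line, so no spread between tumours is measured. The fit of cells against lung holds 1 variance per gene over the 22 arrays, of which 16 are lung. Its standard errors and p therefore draw largely on the spread between lungs and not on that between cell preparations alone. The median log2 SD of the members was 0.23 in untreated cells and 0.23 in lung. Single members differed both ways, as Ddx21 (0.42 and 0.15) and Polr1a (0.08 and 0.25).

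Ribosomes are assembled in the nucleolus, where RNA polymerase I transcribes the ribosomal RNA precursor. Small nucleolar ribonucleoproteins of the box C/D and box H/ACA types then guide methylation and pseudouridylation of that precursor, and separate sets of processing factors cut and fold it into the small and the large subunit. The activity of the pathway is known to follow growth and division, and many of its genes are textbook targets of the transcription factor MYC.

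On the arrays labelled male lung 3 and male lung 4, the female-specific transcript Xist read 1512 and 1583 and the Y-linked gene Uty 8.27 and 9.46, against 12.7 to 24.0 for Xist and 722 to 1253 for Uty on the other male-labelled arrays, so the sex labels of these arrays go against their transcripts. Mean intensity per array lay from 291 to 304 for the cells and from 270.1 to 313 for lung, while the median was 39.4 to 40.7 against 47.9 to 54.6 and the 40th percentile 24.6 to 25.8 against 30.1 to 33.7, both without overlap. The log2 ratio of the 3′ to the 5′ Gapdh control, a sign of RNA integrity, was -0.13 to 0.07 on 5 of the 6 cell arrays, 0.40 on antibody array 2 and 0.22 to 1.02 in lung, and its part in the differences from lung was not tested. A control set the arrays of cells and lung apart: the probe set for the bacterial transcript dap read 366 to 601 in the cells and no more than 2.72 in any lung. Array set and sample type therefore cannot be told apart in any comparison of cells with lung. Of the defining lung markers, the 3 of alveolar type 2 cells that were measured summed to 27.2 to 82.1 in the cells against 23384 to 32612 in lung, the 3 club cell markers summed to 2.03 to 38.3 against 25839 to 33264 in lung and the 4 endothelial markers to 41.6 to 65.6 against 5516 to 10631. The 5 leukocyte markers summed to 116 to 188 in the cells and 9988 to 14363 in lung, the 4 alveolar type 1 markers to 397 to 696 and 16360 to 22635, and the 4 fibroblast markers to 4678 to 7285 and 7665 to 12652. The fibroblast markers did not move together. On average Col1a1 read 2123 in untreated cells and 935 in lung, and Col1a2 2901 and 2821. Pdgfra read 460 and 2744, and Dcn 396 and 3184. The 5 measured proliferation markers, among them Mki67 and Top2a, summed to 5697 to 10410.1 in the cells and 367 to 1138 in lung, and their part in the results below was not tested.

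Most ribosome biogenesis genes were higher in the sorted tumour cells than in lung, with at least 1 gene called higher in every role group. In untreated cells, 28 of the 38 genes were called higher than in lung, none was called lower and 10 were not called, where a call needs a limma adjusted p under 0.05 over all genes and a difference of at least 2-fold. Of all 15196 genes tested, 17.7% were called higher and 23.8% lower. The median difference of the 38 genes was 1.38 on the log2(intensity + 16) scale, or 2.60-fold, against 0.01 over all tested genes. All 38 passed the filter on low intensity. Without the fold requirement 36 were higher and 1, Heatr1, was lower, where 40.9% of all genes were higher and 40.9% lower. The 3 untreated arrays lay wholly above the 16 lung arrays for 35 of the 38 genes, against 32.1% of all genes tested. In a mixed tissue such as lung, fewer cells that express a gene and less of its RNA per cell cannot be told apart. With the arrays labelled male 3 and male 4 left out, 28 genes were again called higher and none lower.

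**Figure D1:**
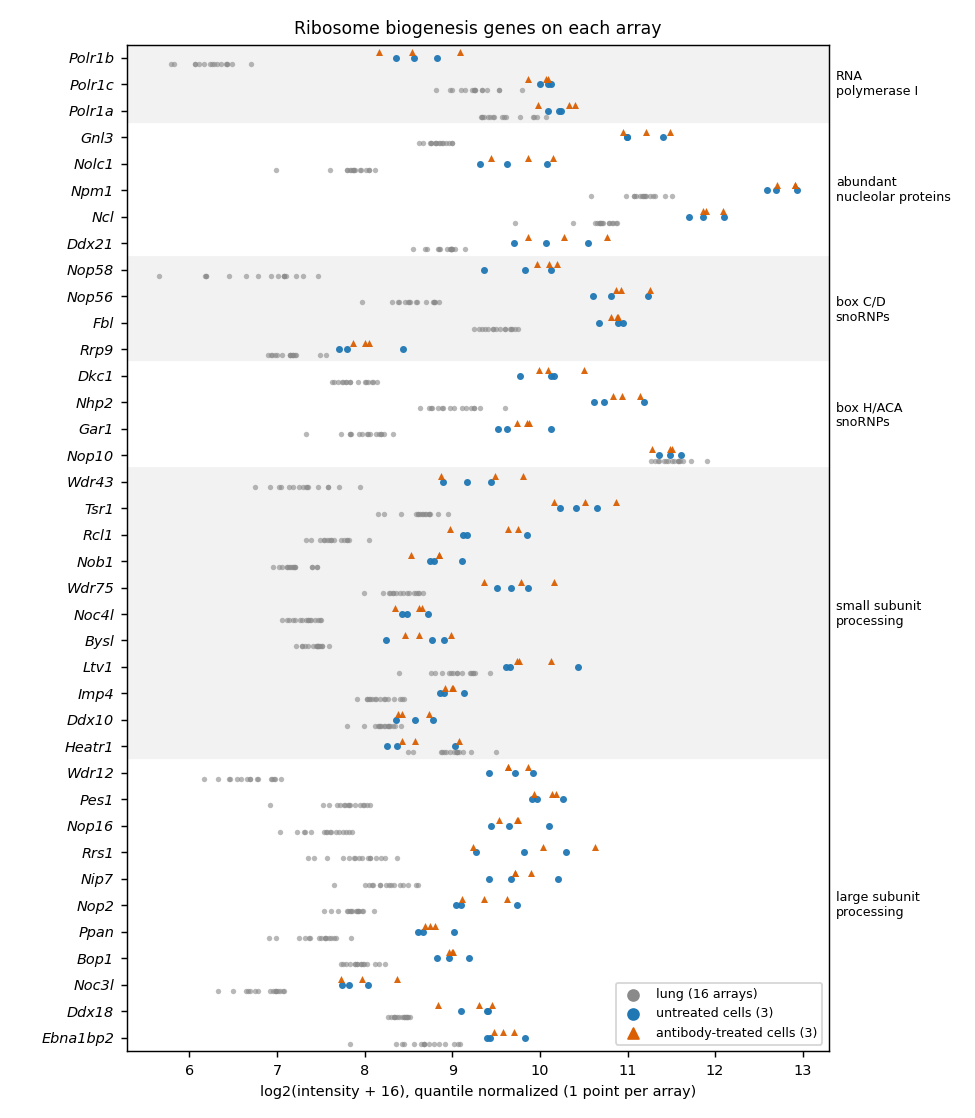
Normalized log2(intensity + 16) of each of the 38 genes on every array, grouped by role, with 16 lung arrays in grey, 3 untreated arrays as blue circles and 3 antibody arrays as orange triangles. For 35 of the 38 genes the untreated cells lie to the right of all lung points, and Nop10, Ddx10 and Heatr1 overlap with lung.

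Antibody-treated cells gave the same count against the same 16 lung arrays: 28 genes were called higher, none lower and 10 not called, where 17.2% of the 15134 genes tested were called higher and 24.0% lower. Without the fold requirement 36 were higher and none lower, where 39.6% of all genes were higher and 41.4% lower. The median difference was 1.45, against -0.01 over all tested genes. The antibody arrays lay above all lung arrays for 34 genes, where 30.0% of all genes did so. Since both comparisons use the same lung arrays, their values are given side by side below and not counted as independent.

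**Figure D2:**
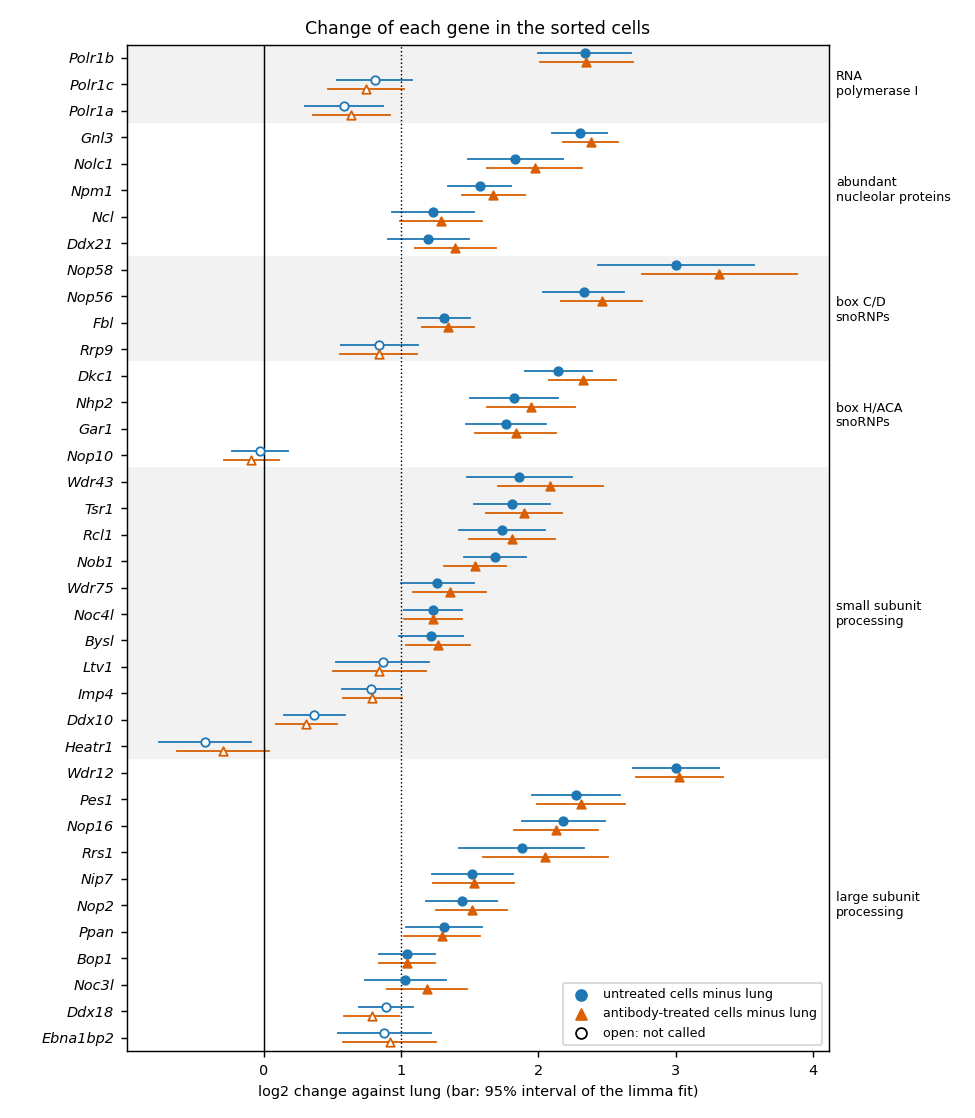
Difference from lung in log2 units for each gene in untreated cells (blue circles) and antibody-treated cells (orange triangles), with 95% intervals from the limma fit and open symbols for genes not called. The solid line marks no difference and the dotted line 2-fold; the 2 cell groups lie close together for each gene, from Heatr1 at -0.43 to Wdr12 at 3.00 in untreated cells.

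MYC and its partner MAX are known to bind the E-box CACGTG, a palindrome that reads alike on both strands, and the cells come from a c-myc transgenic mouse, so the members' promoters were searched for this single motif. Promoter sequence of RefSeq (GRCm38.p6), from 250 bases before to 50 bases after the start, was matched by symbol for 35 members. Of these, 6 (17.1%) held the motif, against 10.8% of the 12133 tested genes with a promoter and 8.09% of all 27025 genes in the table. The motif lay after the start site in 4 of the 35 (11.4%), against 1.62% of tested genes. This split at the start site was not part of the plan and rests on few member sites, so it is a description only. The sites are shown because their place differs between members, with the motif in capitals and 12 bases of flank on each side, 5′ to 3′ on the strand of the gene.
Imp4 E-box site, GRCm38.p6 chr1:34439696-34439725, plus strand: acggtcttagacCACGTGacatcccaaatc
Nop2 E-box site, GRCm38.p6 chr6:125131811-125131840, plus strand: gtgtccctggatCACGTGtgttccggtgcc
Pes1 E-box site, GRCm38.p6 chr11:3963965-3963994, plus strand: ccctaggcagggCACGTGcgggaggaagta
Wdr43 E-box site, GRCm38.p6 chr17:71616220-71616249, plus strand: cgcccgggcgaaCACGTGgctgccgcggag
Tsr1 E-box site, GRCm38.p6 chr11:74898092-74898121, plus strand: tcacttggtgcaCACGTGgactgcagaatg
Ltv1 E-box site, GRCm38.p6 chr10:13193092-13193121, minus strand: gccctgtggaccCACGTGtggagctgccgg
The motif began 121 bases before the start in Imp4 and 60 bases before it in Nop2. In Pes1, Wdr43, Tsr1 and Ltv1 it began at base 3, 18, 25 and 29, where the start base counts as 1. Of these genes, Pes1 (2.27 ± 0.16), Wdr43 (1.86 ± 0.19), Tsr1 (1.81 ± 0.13) and Nop2 (1.44 ± 0.13) were called higher in untreated cells, while Imp4 (0.78 ± 0.10) and Ltv1 (0.87 ± 0.16) were below 2-fold (log2 difference ± SE, limma). Among all tested genes with a promoter 17.8% were called higher, among the 1308 with the motif 20.1%, and among the 197 with the motif after the start 27.9%. These groups include the members named here, so the shares are not separate support, and the part of MYC was not tested. A match is a description of letters and not of binding.

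The 250 bases before the start are shown for Nop2, which holds the motif, and for Nop56 and Nop58, the paired scaffold proteins of box C/D particles, which differ strongly between cells and lung and hold none in this window; capitals mark CACGTG.
Nop2 upstream bases, GRCm38.p6 chr6:125131633-125131882, plus strand: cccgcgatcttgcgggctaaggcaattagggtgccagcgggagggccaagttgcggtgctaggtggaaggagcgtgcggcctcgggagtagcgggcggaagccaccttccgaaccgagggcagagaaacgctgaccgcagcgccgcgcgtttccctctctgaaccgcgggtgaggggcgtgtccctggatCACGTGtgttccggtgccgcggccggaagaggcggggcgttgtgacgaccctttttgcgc
Nop56 upstream bases, GRCm38.p6 chr2:130274162-130274411, plus strand: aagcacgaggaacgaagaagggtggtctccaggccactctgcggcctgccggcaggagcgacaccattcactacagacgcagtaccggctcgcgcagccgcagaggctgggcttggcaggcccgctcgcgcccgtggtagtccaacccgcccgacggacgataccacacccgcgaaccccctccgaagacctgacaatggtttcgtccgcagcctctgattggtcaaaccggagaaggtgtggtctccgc
Nop58 upstream bases, GRCm38.p6 chr1:59684756-59685005, plus strand: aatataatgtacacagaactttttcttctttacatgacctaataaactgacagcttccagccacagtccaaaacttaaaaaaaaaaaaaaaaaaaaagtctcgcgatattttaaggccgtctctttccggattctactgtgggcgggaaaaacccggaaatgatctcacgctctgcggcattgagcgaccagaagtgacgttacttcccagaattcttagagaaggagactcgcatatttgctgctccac
Guanine and cytosine made up 67.6% of the bases shown for Nop2, 65.2% for Nop56 and 41.2% for Nop58. Over the 300-base windows the median was 59.3% for the members and 59.7% for tested genes.

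RNA polymerase I makes the long precursor of ribosomal RNA, and Polr1a and Polr1b encode its 2 largest subunits, while Polr1c is shared with RNA polymerase III. Polr1b (probe set 1416126_at) read 428, 286 and 329 on untreated arrays 1 to 3 and 333, 492 and 245 on antibody arrays 1 to 3, and between 39.1 and 103 with a median of 66.8 on the 16 lung arrays. Every cell array thus lay above every lung array. The difference from lung was 2.34 ± 0.16 (log2 ± SE, limma adjusted p = 3.0e-12) in untreated and 2.35 in antibody-treated cells. Polr1a (probe set 1456066_a_at) read 1140.1, 1172 and 1205 in untreated cells, 1275, 970.0 and 1379 in antibody-treated cells and between 597 and 1041 with a median of 741 in lung. Here antibody array 2 fell inside the lung range, and the difference of 0.58 ± 0.14 in untreated cells was below 2-fold (limma adjusted p = 4.4e-04). A second Polr1a probe set (1417775_at) read 317 ± 59.9 (SD) in the 3 untreated samples and 121 ± 16.7 (SD) in the 16 lungs, a difference of 1.46 that was called higher. Polr1c read 1138, 1091 and 1003 in untreated cells and between 374 and 837 with a median of 629 in lung. All 3 untreated arrays were above lung, with a difference of 0.81 ± 0.13 that stayed below 2-fold (limma adjusted p = 6.3e-06).

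Of 12 other tested genes of RNA polymerase I and its initiation factors, 3 were called higher, 2 lower and 7 not called in untreated cells, with a median difference of 0.23. These shares lie near the 17.7% higher and 23.8% lower of all tested genes. The subunit gene Polr1e (1.61), Cd3eap (1.42), which encodes a further polymerase subunit, and Rrn3 (1.31), the initiation factor that recruits the polymerase, were higher. Ttf1, the transcription terminator, differed by -2.08 ± 0.12 and Taf1d, a subunit of the promoter selectivity factor, by -1.88 ± 0.15, both called lower (limma adjusted p = 5.0e-14 and 4.9e-11). Ubtf, the upstream binding factor of ribosomal DNA, was not called at -0.08 ± 0.10 (limma adjusted p = 0.481).

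All 5 abundant nucleolar proteins were called higher in both cell groups, with a median difference of 1.57 in untreated and 1.67 in antibody-treated cells. Gnl3 encodes nucleostemin, a GTP-binding nucleolar protein of proliferating cells. It read 2927, 2042 and 2089 in untreated cells, 2377, 2895 and 2031 in antibody-treated cells and between 334 and 517 with a median of 456 in lung. The lowest cell array was far above the highest lung array, and the difference was 2.30 ± 0.10 in untreated and 2.38 ± 0.10 in antibody-treated cells (log2 ± SE, limma adjusted p = 1.7e-16 and 8.9e-17). Npm1 encodes nucleophosmin, a histone chaperone of the granular nucleolus. Its probe set read 6541, 7131 and 8889 in untreated cells, 8907, 8822 and 7283 in antibody-treated cells and between 1344 and 2854 with a median of 2301 in lung, a difference of 1.57 ± 0.11 in untreated cells with no overlap.

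Nucleolin, encoded by Ncl, binds the ribosomal RNA precursor. The chosen Ncl probe set (1415771_at) read 4606, 3338 and 3896 in untreated cells, 4025, 4649.6 and 3893 in antibody-treated cells and between 718 and 1842 with a median of 1648 in lung. Cells and lung did not overlap, with a difference of 1.23 ± 0.14 (limma adjusted p = 3.5e-08), but the size differed between its 5 probe sets, from -0.11 at a dim set to 2.68. Nolc1, a chaperone of small nucleolar ribonucleoproteins, was higher by 1.83 ± 0.17. The smallest difference of the group was that of Ddx21, an RNA helicase, which read 1592, 784 and 1057 in untreated cells and between 309 and 559.8 with a median of 491 in lung. All 3 untreated arrays were above lung, and the difference of 1.20 ± 0.14 (limma adjusted p = 4.5e-08) became 0.98, below 2-fold, without untreated array 1.

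Box C/D particles place methyl groups on ribosomal RNA; fibrillarin, encoded by Fbl, is their methyltransferase, and Nop56 and Nop58 are their scaffold proteins. Nop58 (probe set 1450986_at) read 1168, 869 and 613 in untreated cells, 1083, 1136 and 994 in antibody-treated cells and between 36.9 and 176 with a median of 118 in lung. No cell array came near the lung range, and the difference of 3.00 ± 0.27 in untreated and 3.32 ± 0.27 in antibody-treated cells was, with that of Wdr12, the largest among the members (limma adjusted p = 4.5e-10 and 7.2e-11). Nop56 (probe set 1455035_s_at) read 2578, 1550.5 and 1829 in untreated cells, 1935, 2449 and 1932 in antibody-treated cells and between 204 and 486 with a median of 381 in lung. Both of its probe sets were called higher, and the chosen set differed by 2.33 ± 0.14. Fbl read 2099, 1614 and 1927 in untreated cells and between 529.7 and 869 with a median of 733 in lung, with a difference of 1.32 ± 0.09 and no overlap. Rrp9, which binds the U3 particle, was the exception, with 308, 172 and 178 in untreated cells and between 107 and 167 with a median of 134 in lung. Untreated array 1 was well above lung and arrays 2 and 3 just cleared the highest lung array, and the difference of 0.84 ± 0.14 was below 2-fold and not called (limma adjusted p = 5.1e-06).

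In box H/ACA particles dyskerin, encoded by Dkc1, is the pseudouridine synthase and Gar1, Nhp2 and Nop10 are its 3 partners; 3 of these 4 genes were called higher and Nop10 was not. Dkc1 read 1165, 836 and 1142 in untreated cells, 1072, 1424 and 1021 in antibody-treated cells and between 161 and 280.4 with a median of 234 in lung. The groups were wide apart, with a difference of 2.15 ± 0.12 in untreated and 2.32 ± 0.12 in antibody-treated cells (limma adjusted p = 3.7e-14 and 8.2e-15). Nhp2 differed by 1.82 ± 0.15 and Gar1 by 1.77 ± 0.14 in untreated cells, and for both all 6 cell arrays exceeded all lung arrays. Nop10 (probe set 1423210_a_at) read 3402, 2923 and 2694 in untreated cells, 2519, 2891 and 3043 in antibody-treated cells and between 2451 and 3586 with a median of 2907 in lung. All cell arrays fell inside the lung range. The difference was -0.03 ± 0.10 with a 95% interval from -0.23 to 0.18 (limma adjusted p = 0.805), so a rise of 2-fold lies outside the interval at this probe set. Its sign changed with the scaling, to 0.06 without normalization and 0.33 with median centring. A second Nop10 probe set (1423211_at) read 1892 ± 365 (SD) in the 3 untreated samples and 1312 ± 207 (SD) in the 16 lungs, a difference of 0.47, below 2-fold (limma adjusted p = 0.00124).

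Of the 11 small subunit factors, 7 were called higher in untreated cells, with a median difference of 1.23. Wdr43, a component of the small subunit processome, had the largest difference and read 562, 439.7 and 651 in untreated cells, 687, 854 and 438 in antibody-treated cells and between 98.2 and 243 with a median of 150.0 in lung. The groups did not overlap, and it differed by 1.86 ± 0.19 in untreated and 2.09 ± 0.19 in antibody-treated cells (limma adjusted p = 2.1e-09 and 2.8e-10). Tsr1, a late maturation factor, read 1707, 1179 and 1366 in untreated cells and between 233 and 487 with a median of 403 in lung, a difference of 1.81 ± 0.13. The other genes called higher were Rcl1, a cyclase-like processome protein (1.74 ± 0.15), Nob1 (1.68 ± 0.11), the nuclease that makes the final cut of the small subunit RNA, Wdr75, a processome subunit (1.26 ± 0.13), Noc4l, a nucleolar assembly factor (1.23 ± 0.10), and Bysl, a factor of late maturation (1.22 ± 0.11), and for each of them all untreated arrays lay above all lung arrays. A dimmer Bysl probe set (1450742_at) differed by only 0.15 and was not called (limma adjusted p = 0.482).

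The 4 small subunit factors that were not called had different patterns. Ltv1, a factor of late small subunit assembly, read 1461, 766 and 741 in untreated cells and between 276 and 696 with a median of 527 in lung. Array 1 was far above lung and the other untreated arrays just above it, for a difference of 0.87 ± 0.16 (limma adjusted p = 3.8e-05) that became 1.01 and was called without untreated array 3. Imp4, a partner of the U3 particle, read 545, 426 and 433 in untreated cells, 475, 465 and 451 in antibody-treated cells and between 237 and 347 with a median of 282 in lung. The groups did not overlap, and the difference was 0.78 ± 0.10. Ddx10, a helicase, read 409.9, 287 and 331 in untreated cells and between 181 and 354 with a median of 291 in lung. These ranges overlapped, and the difference was 0.37 ± 0.11 (limma adjusted p = 0.00311). Heatr1, a large scaffold of the processome that is also needed for ribosomal RNA transcription, was the only member lower than lung at an adjusted p under 0.05, and read 506, 266 and 283 in untreated cells, 343, 488 and 302 in antibody-treated cells and between 309.6 and 677 with a median of 519 in lung. The ranges overlapped, with a difference of -0.43 ± 0.16 in untreated and -0.30 ± 0.16 in antibody-treated cells (limma adjusted p = 0.0196 and 0.0987). A second Heatr1 probe set (1437965_at) went the other way, at 88.3 ± 18.1 (SD) in the 3 untreated samples against 15.7 ± 3.67 (SD) in the 16 lungs, a difference of 1.98 that was called higher. In lung that set lay below the 40th percentile of every array, so it passed the filter through the cell arrays and its size rests on a lung value near background.

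Large subunit factors were called higher for 9 of the 11 measured genes, with a median difference of 1.44. Pes1, Bop1 and Wdr12 encode the PeBoW complex, which processes the large subunit RNA. Wdr12 (probe set 1448646_at) read 1004, 650.1 and 807 in untreated cells, 763, 889 and 783 in antibody-treated cells and between 57.3 and 137 with a median of 92.9 in lung. Every cell array was above the highest lung array, with a difference of 3.00 ± 0.15 in untreated and 3.03 ± 0.15 in antibody-treated cells (limma adjusted p = 7.4e-15 and 6.4e-15). Pes1 read 1287, 924 and 979 in untreated cells, 1101, 1130.4 and 971 in antibody-treated cells and between 98.8 and 282 with a median of 224 in lung, a difference of 2.27 ± 0.16 with no overlap. Bop1 read 571, 458 and 405 in untreated cells and between 211 and 286 with a median of 239 in lung. It also cleared lung on every untreated array, but its difference of 1.04 ± 0.10 sat at the 2-fold limit and was 0.94 without untreated array 1. At the chosen probe sets, the 3 genes of this complex thus differed from lung by 1.04 to 3.00, and the further Wdr12 sets are given below.

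Among the other large subunit factors, Nop16 (2.18 ± 0.15), Rrs1 (1.88 ± 0.22), Nip7 (1.52 ± 0.14), Nop2 (1.44 ± 0.13), Ppan (1.31 ± 0.13) and Noc3l (1.03 ± 0.14) were called higher in untreated cells, all of them assembly factors that act on the large subunit precursor. Nop2, an RNA methyltransferase, read 865, 488 and 506 in untreated cells and between 175 and 255 with a median of 234 in lung. Rrs1, which helps bring in the 5S particle, had the largest SD of the members in both cell groups (0.52 and 0.70 in log2 units), at 1326, 577 and 869 in untreated and 1033, 1553 and 577 in antibody-treated cells and between 133 and 329.7 with a median of 243 in lung. Even its lowest cell array was above all lung arrays. Noc3l, like Bop1, lost its call without untreated array 1, at 0.95. The uncalled genes were Ddx18 (0.89 ± 0.10) and Ebna1bp2 (0.88 ± 0.16), both below 2-fold. Ddx18, a helicase, read 674, 510.5 and 633 in untreated cells and between 287 and 388 with a median of 342 in lung, and Ebna1bp2 read 925, 656 and 632 and between 186 and 552 with a median of 421. Both separated fully from lung in untreated cells, and a second Ebna1bp2 probe set (1437512_x_at) was called higher at 1.47.

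Across all probe sets of the members, 76 of 81 were tested in untreated cells against lung, of which 52 were called higher, 1 lower and 23 not called, where 20.1% of all probe sets tested were higher and 19.7% lower. Of the 38 tested probe sets that had not been chosen, 24 were called higher. For 22 of 27 members with several tested sets, all sets had the same sign. The exceptions were Ncl, Nop10, Ddx10, Heatr1 and Wdr12. Sets whose lung mean lay below the lung arrays' 40th percentile, such as the second Heatr1 set and both further Wdr12 sets, could pass the filter through the group where they are higher, so the counts over sets are a description. The single probe set called lower was a Wdr12 set of the cross-hybridizing type (1459762_x_at), which read 0.756 ± 1.09 (SD) in the 3 untreated samples and 27.5 ± 4.22 (SD) in the 16 lungs, while the third Wdr12 set (1417270_at) was called higher at 1.62.

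**Figure D3:**
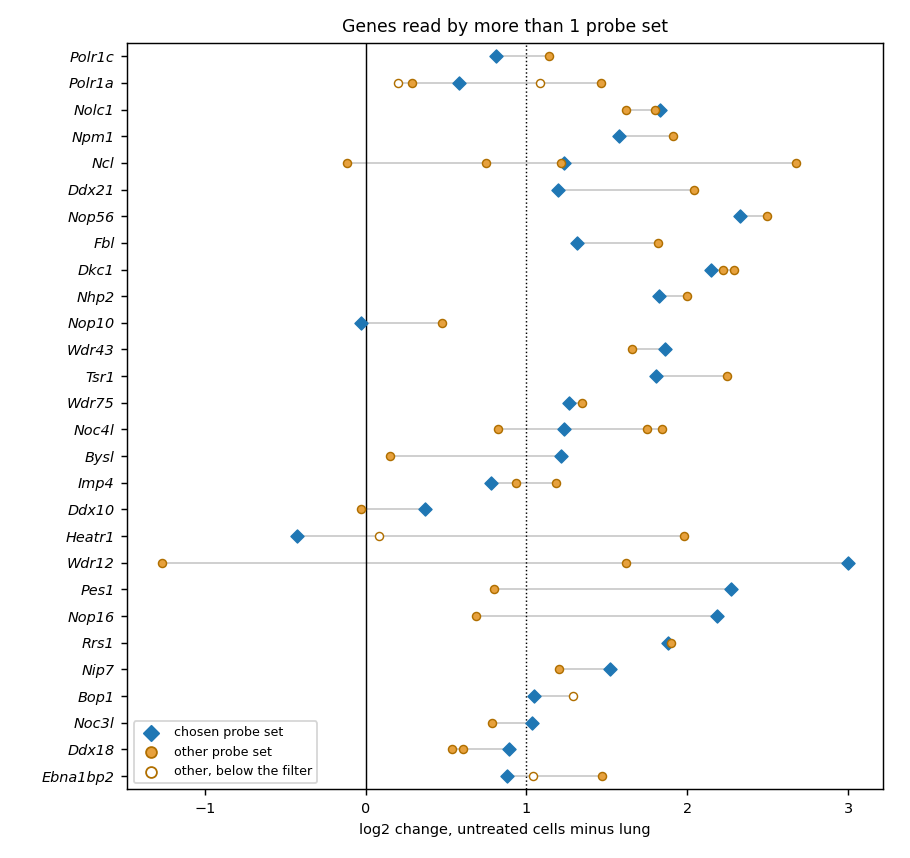
Log2 difference of untreated cells from lung for each probe set of the 28 members read by more than 1, with the chosen set as a blue diamond, other tested sets as orange circles and sets below the filter as open circles. Heatr1 ranges from -0.43 to 1.98 and Wdr12 from -1.27 to 3.00, whereas the sets of Dkc1, Rrs1 and Nop56 lie close together.

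Wider lists of the pathway were set beside the 38 genes. Of 45 further small subunit factors 30 were called higher and none lower in untreated cells, with a median difference of 1.17, led by Tsr3 (2.31), Rps19bp1 (2.21) and Dimt1 (2.07), an RNA dimethyltransferase. Of 45 further large subunit factors 22 were higher and none lower, with a median of 0.91, led by Rsl1d1 (3.07), Ftsj3 (2.86), an RNA methyltransferase, and Brix1 (2.01). The RNA exosome and RNase MRP, which trim and cut the precursor, had 13 of 21 genes higher and none lower, with a median of 1.15, including the nuclease gene Dis3 (3.04). With the mean of each gene's probe sets in place of the brightest, the exosome count was 8. Of the cytosolic ribosomal proteins, the structural parts of the ribosome, 43 listed genes had a probe set of 1 gene and 42 were tested. The other listed symbols are not covered. Of the 42 tested genes 7 were called higher and none lower, a share near the 17.7% of all genes, with a median of 0.23. Without the fold requirement 27 of the 42 were higher and 1 lower (40.9% and 40.9% of all genes), and 22 had all untreated arrays above all lung arrays (32.1% of all genes). Rpl12 (2.21) and Rpl14 (2.08) led those called. Ribosomal protein genes have many pseudogene copies whose transcripts a probe set may not tell apart, and the count was 4 with the mean of probe sets.

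**Figure D4:**
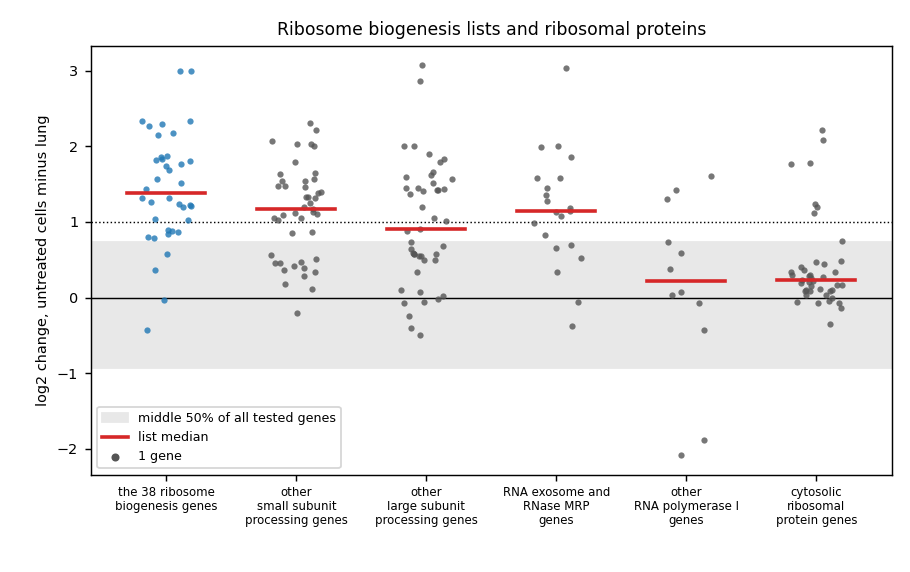
Log2 difference of untreated cells from lung for each gene (points) of the 38 genes and 5 wider lists, with the list median as a red bar and the middle 50% of all tested genes shaded. Medians are 1.38 for the 38 genes, 1.17, 0.91 and 1.15 for the next 3 lists, and 0.23 for both the other RNA polymerase I genes and the ribosomal protein genes.

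Myc, the transcription factor gene of 1 of the transgenes, read 844 ± 120.0 (SD, n = 3) in untreated cells, 888 ± 81.3 (SD, n = 3) in antibody-treated cells and 70.0 ± 23.0 (SD, n = 16) in lung, a difference of 3.46 ± 0.21 in untreated cells (limma adjusted p = 2.4e-13). Whether this probe set reads the transgene, the endogenous gene or both was not tested. Its partner Max differed by 0.64 ± 0.27 and was not called.

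Antibody treatment was compared with no treatment on the 6 cell arrays alone. None of the 38 genes was called, where 0% of the 12703 genes tested were called higher and 0.0236% lower, and none had an unadjusted limma p under 0.05, against 0.740% of all genes. Differences ran from -0.14 (Nob1) to 0.32 (Nop58), with a median of 0.05 against -0.02 over all genes. Nop58, for which the untreated and antibody values are given above, had a 95% interval from -0.13 to 0.76 (limma adjusted p = 0.99997). The precision differed between members: the narrowest 95% interval was that of Npm1, from -0.15 to 0.35, and the widest that of Rrs1, from -0.65 to 0.99. For 29 of 38 genes the antibody mean was the higher, where 43.8% of all genes were. That count was 9 without untreated array 2 and 35 without untreated array 1, and 13 without antibody array 2, so it rests on single arrays.

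Within each cell group, most members had their highest and lowest values on the same arrays. On untreated array 1, 33 of the 38 genes (86.8%) had their highest of the 3 untreated values, where 37.9% of all tested genes did, and on untreated array 2, 27 (71.1%) had their lowest, where 32.9% of all genes did. Antibody array 2 held the highest value for 27 genes (71.1%, against 36.2% of all genes) and antibody array 3 the lowest for 27 (71.1%, against 34.0%). The mean normalized log2 value over the 38 genes was 9.98, 9.53 and 9.66 on untreated arrays 1 to 3 and 9.77, 9.95 and 9.62 on antibody arrays 1 to 3. The antibody-treated arrays thus lay within the span of the untreated ones, and both were above the lung range of 7.94 to 8.40. The mean over the 42 ribosomal protein genes differed far less between cell arrays, from 12.07 to 12.11, all above the 11.60 to 11.74 of the lung arrays. These genes read brighter than the 38 on every array, and the part of signal level in their smaller differences was not tested. Antibody array 2 is the cell array whose Gapdh 3′ to 5′ log2 ratio stood at 0.40, while untreated array 1 was at -0.12, and the part of RNA integrity in this order was not tested.

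**Figure D5:**
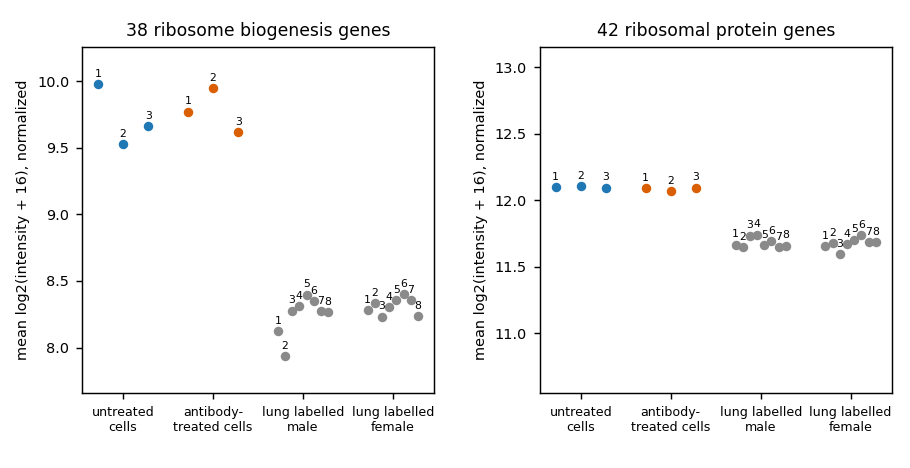
Mean normalized log2(intensity + 16) on each array over the 38 ribosome biogenesis genes (left) and 42 ribosomal protein genes (right), with replicate numbers beside the points and axes of equal length. On the left the cell arrays lie between 9.53 and 9.98 and lung between 7.94, on the array labelled male 2, and 8.40; on the right the cell arrays span 12.07 to 12.11 and lung 11.60 to 11.74.

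Female-labelled and male-labelled lung were compared to see whether the pooled reference was uniform for these genes. None of the 38 was called, where 0.0208% of the 14393 genes tested were called higher in female lung and 0.0278% lower. With an unadjusted limma p under 0.05 there was 1 member, Nip7, at 0.24 (limma adjusted p = 0.444), where 10.6% of all genes had one. The median difference was 0.07. Without the arrays labelled male 3 and male 4 none was called, 6 members had an unadjusted limma p under 0.05 (1507 of 14270 genes tested did), and the median was 0.10. Within lung the members varied slightly more between arrays than other genes, with a median SD of 0.23 on the log2 scale against 0.20 for all tested genes. The array labelled male 2 had the lowest of the 16 lung values for 21 members (55.3%), where it held the lowest for 16.7% of all genes. It held the highest for 3 members (7.9%) and for 18.9% of all genes. This array also had the lowest mean intensity (270.1), and its Gapdh 3′ to 5′ log2 ratio was 0.81. The part of array quality in its member values was not tested. Without that array, 28 members were called higher in untreated and 28 in antibody-treated cells, as with it.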

How the data were processed

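Messenger RNA of 22 samples (3 untreated, 3 antibody-treated, 16 lung) was measured as probe set intensity. The authors deposited linear intensities made with PLIER, per the submitters' processing notes. How PLIER was set, its version and whether arrays were scaled are not given in the sources used here. From these, log2(intensity + 16) was computed and quantile normalized over the 22 arrays. Control probe sets (64 of 45101) were left out, 34945 sets carried 1 gene symbol in the supplied annotation, and each gene was read by its brightest set (cross-hybridizing sets were used only where a gene had no other). Genes above the array's 40th percentile on at least 3 compared arrays were tested with limma 3.58.1 in R 4.3.3 (two-sided, variance trend, Benjamini-Hochberg over all genes tested). Calls needed an adjusted p under 0.05 and, against lung, at least 2-fold. All 4 groups entered the fit of cells against lung (the average of both sexes), treatment was fitted on the 6 cell arrays and sex on the 16 lung arrays. SE are those of the fit. Promoters and small nucleolar RNA genes came from RefSeq (GRCm38.p6).

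The members, gene lists, tests and alternatives were chosen with earlier results of these data known, so none is independent support. Any member could be named; those described fully were the largest and smallest change of each role, members not called or with probe sets of unlike direction, and those whose sequences are shown. Of each wider list up to 3 genes in a direction were named. The fits were run on simulated data to check that differences put in were recovered on average. Those data had independent normal values with the spread of female lung and no shift shared by the genes of an array. The run therefore does not measure error rates for the real arrays. The number of arrays limits the precision. Replicate numbers do not pair the cell samples: deviations of same-numbered samples correlated across genes at 0.066, -0.26 and 0.068.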

Additional observations from a re-analysis of the deposited data

Results flagged for a closer look

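Within the groups of 8 lung arrays, the highest or lowest array stood apart from the others (Dixon's criterion) in 6 of 76 gene and group pairs, where chance alone flags about 1 in 20. That rate holds for independent pairs, whereas pairs here share arrays, and the share over all genes was not computed. In male-labelled lung all 5 lay on the array labelled male 2. Among the male-labelled arrays, it held the highest value for 24.9% and the lowest for 21.4% of all tested genes. The values that follow are in normalized log2 units. Ncl read 9.71 there, below the 10.38 to 10.84 of the other male arrays, Nolc1 read 6.98 (others 7.60 to 8.01) and Pes1 read 6.92 (others 7.59 to 8.06). In the opposite direction Polr1a read 9.92 on that array (others 9.33 to 9.59) and Rrp9 read 7.56 (others 6.93 to 7.21). In female-labelled lung, Tsr1 read 8.95 on array 2 against 8.58 to 8.73 on the others.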

How the results depend on the processing

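Across normalization, offset, filter, probe set rule, variance model and choice of lung arrays, the members called higher numbered 26 to 32 in untreated and 26 to 31 in antibody-treated cells, and none was called lower. Under these settings 12.1% to 21.0% of all genes were called higher in untreated and 11.9% to 20.3% in antibody-treated cells. In untreated cells the share was 12.1% with an offset of 64, where 26 members were called, and 20.8% with median centring, where 32 were. Of the 38, 24 and 25 were called under all 18 settings. Leaving out each cell array gave 25 to 29 in untreated and 28 in antibody-treated cells. The shares of all genes called higher were then 15.6% to 16.1% and 15.3% to 15.5%. Scaling moved the median of all genes in untreated cells from 0.01 to -0.15 without normalization and to 0.12 with median centring, under which the members' median was 1.35 and 1.62. Calls near 2-fold depended on these choices. Bop1 was 0.93 and Noc3l 0.78 without normalization, and median centring brought Polr1c (1.08), Ltv1 (1.12), Ebna1bp2 (1.10) and Ddx18 (1.09) past the limit. With the mean of probe sets Heatr1 was 0.54 and Bysl 0.68, since those averages include a set of another size. Sizes of called members also depended on the setting. In untreated cells the lowest value over the 18 settings was 1.12 for Wdr12, 1.53 for Pes1 and 1.43 for Nop16, against 3.00, 2.27 and 2.18 in the main fit. These 3 genes were called under all 18. Antibody against untreated cells and female against male lung gave 0 called members under every setting run. The p of the treatment comparison did depend on the variance model. With array weights 2062 of the 12703 genes and 2 members had an unadjusted limma p under 0.05, against 94 and 0 in the main fit. The members' median was then 0.12, 33 of 38 were higher after antibody, and their smallest limma adjusted p was 0.247. With the replicate number as a block in antibody against untreated cells, 0 were called; same-numbered samples did not all correlate best with each other. The count of members higher after antibody ranged from 9 to 35 when single arrays were left out. Leaving out the array labelled male 2 was chosen after seeing the data. Folds of dim sets depend on the offset of 16.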

Other observations

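Some members carry small nucleolar RNA genes inside their own span, usually in introns, so that a gene for a ribosome factor and the guide RNAs of the pathway can share a transcript. By RefSeq coordinates (GRCm38.p6, strand not examined), 8 of the 39 members (20.5%) had at least 1 such gene within their span, against 1.97% of the 14289 tested genes with coordinates. Nop56 held 5, Nop58 4, Gnl3 3 and Wdr43 3, and the others were Dkc1, Ncl, Ppan and Tsr1. All 8 were called higher in untreated cells than in lung, where 28 of the 38 measured members and 21.7% of the 281 tested hosts of any kind were. The arrays do not measure the small nucleolar RNAs themselves, so their levels were not tested.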
